A study of Mus musculus with 4 samples.

Results

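The mRNAs of 10 enzymes of neuronal glycolysis were examined: Hk1, Gpi1, Pfkm, Pfkp, Aldoa, Tpi1, Pgk1, Eno2, Pkm and Ldhb. They were taken by symbol, after the Ensembl identifiers of the count tables had been matched to GENCODE M21, and all 10 were found among 31053 genes. The libraries came from primary cortical neurons of WT (wild-type) mice, which the study's methods describe as cultures from C57BL/6J embryos given floxuridine to hold back dividing cells. Enhanced crosslinking and immunoprecipitation (eCLIP) with an antibody to RPS2, which belongs to the small subunit of the ribosome, gave 2 IP libraries, and RNA set aside before the pulldown gave 2 total RNA libraries. The study used IP over total RNA per gene as a measure of translational efficiency, to set beside RNA editing by a tagged RPS2. Same-numbered IP and total RNA libraries were read as 1 sample, and nothing in the labels says that replicates 1 and 2 were separate cultures. The p-values below therefore cover no spread beyond these libraries. The edgeR p-values take that spread from a trend over all genes, not from each gene alone. The labels give rRNA depletion as the treatment of IP and none for total RNA. The study's methods place this depletion after the libraries were made and do not say which libraries had it. If only IP had it, any effect of that step cannot be told apart from that of the pulldown.

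Glycolysis splits glucose into pyruvate in the cytosol, and lactate dehydrogenase then interconverts pyruvate and lactate. Hexokinase, phosphofructokinase and pyruvate kinase catalyse the steps that are practically irreversible in the cell, and most steps are shared among isozymes encoded by separate genes. Neurons are known for HK1, for the gamma enolase encoded by Eno2 and for the heart-type lactate dehydrogenase subunit encoded by Ldhb, while Aldoc, the aldolase C gene, is strongly expressed in astrocytes.

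Several of these genes have processed pseudogenes, copies of a spliced mRNA that were put back into the genome. A read that aligned to more than 1 place was not counted in these tables, so such a gene is measured only through the stretches in which its sequence is its own. The following pairs show, for the 6 members with such a copy, a stretch of 80 coding bases beside the same stretch of the pseudogene that shared most sequence with it. Sequences are from GENCODE M21 (mm10), written 5′ to 3′ on the strand of each gene, and capitals mark the bases at which the 2 differ. Coordinates are those of the pseudogene stretch.
Gpi1, coding bases 632 to 711: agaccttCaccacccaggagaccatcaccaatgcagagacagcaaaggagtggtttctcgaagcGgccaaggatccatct
Gm1840, chr8:5639966-5640045, + strand: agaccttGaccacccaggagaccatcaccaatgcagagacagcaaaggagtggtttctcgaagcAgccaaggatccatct
Aldoa, coding bases 197 to 276: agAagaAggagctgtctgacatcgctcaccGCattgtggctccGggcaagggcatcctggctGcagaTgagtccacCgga
Gm5276, chr3:57362390-57362469, + strand: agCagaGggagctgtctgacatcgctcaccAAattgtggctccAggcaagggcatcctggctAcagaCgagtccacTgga
Tpi1, coding bases 589 to 668: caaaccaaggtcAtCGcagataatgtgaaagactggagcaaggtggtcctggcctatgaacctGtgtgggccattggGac
Tpi-rs11, chr6:127183639-127183718, - strand: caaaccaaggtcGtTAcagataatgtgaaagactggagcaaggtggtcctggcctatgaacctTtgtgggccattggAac
Pgk1, coding bases 2 to 81: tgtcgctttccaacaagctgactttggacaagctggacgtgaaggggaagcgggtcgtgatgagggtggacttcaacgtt
Pgk1-rs7, chr12:10900161-10900240, - strand: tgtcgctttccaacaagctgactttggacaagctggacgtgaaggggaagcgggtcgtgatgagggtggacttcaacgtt
Pkm, coding bases 1 to 80: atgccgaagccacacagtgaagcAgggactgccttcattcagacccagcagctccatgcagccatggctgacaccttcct
Gm6560, chr5:22726089-22726168, - strand: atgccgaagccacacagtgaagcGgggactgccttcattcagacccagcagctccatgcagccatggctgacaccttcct
Ldhb, coding bases 1 to 80: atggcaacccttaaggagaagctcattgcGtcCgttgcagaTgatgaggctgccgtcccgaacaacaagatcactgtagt
Gm5514, chr19:21937380-21937459, + strand: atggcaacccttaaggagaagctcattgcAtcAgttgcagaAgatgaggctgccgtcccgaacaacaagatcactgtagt

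The pairs run from 0 differences in Pgk1 to 8 in Aldoa. Over their whole alignments the copies were 100% identical to the coding sequence of Pgk1 (1250 bases), 98.7% to that of Gpi1 (1043 bases), 98.4% to that of Pkm (1593 bases) and 98.0% to that of Ldhb (1002 bases). Those of Tpi1 and Aldoa were 97.7% (309 bases) and 89.5% (1072 bases). None of these 6 pseudogenes has a row of its own in the count tables.

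The size of the loss was read from windows of 50 bases along the annotated transcripts, as the share whose sequence also occurs in a transcript of another gene. Pgk1 stood apart, with 53.9% of all its windows and 100% of its 1202 coding windows found elsewhere, so that its counts came from outside the coding sequence as far as reads of this length go. Ldhb followed with 21% of all windows and 35.6% of the coding ones, then Pkm with 14.2% and 46.9%, and Gpi1 with 8.36% and 32.4%. Aldoa (6.43% and 16.8%) and Tpi1 (4.18% and 13.7%) were less affected. For Hk1, Pfkm and Pfkp the share was 0 over both kinds of window, and for Eno2 it was 0.14% over all windows and 0 in the coding sequence. Among the other enzymes of the pathway, Gapdh (glyceraldehyde phosphate dehydrogenase) shared 94.2% of its coding windows and Pgam1 (phosphoglycerate mutase) shared 100%. The read length is not given in the sources used here, and only annotated transcripts were searched, so these shares do not measure the reads lost. Part of their order also changes with the window length. At 30 bases Aldoa (17.7% of all windows) was above Gpi1 (14.6%), and at 75 bases it was below (0.672% and 4.17%).

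**Figure D1:**
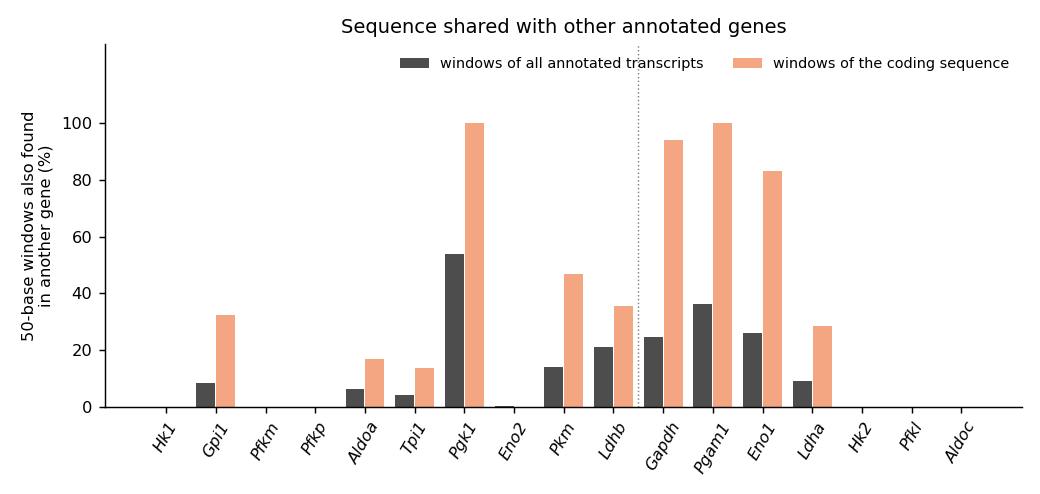
Share of 50-base windows of each gene that also occur in an annotated transcript of another gene, in percent, over all transcripts (dark bars) and over the coding sequence (light bars), with the 10 members left of the dotted line. Pgk1 reaches 100% in its coding sequence, while Hk1, Pfkm and Pfkp are at 0.

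Library totals ran from 4899718 to 16460545 counts, and the members together held 69693 and 84096 counts in IP replicates 1 and 2, and 23023 and 52911 in total RNA. That was 0.423% (95% Wilson interval 0.420 to 0.427) and 0.846% (0.840 to 0.852) of the IP counts. The shares of total RNA were 0.436% (0.430 to 0.442) and 1.08% (1.07 to 1.09). These intervals cover counting error only. One gene, Gm42418, took between 15.3% and 42.6% of a library, and without it the members' shares were 0.738%, 1.17%, 0.724% and 1.27%. Neuron markers (10 genes, among them Tubb3, Map2 and Snap25) were present in every library, with a summed level of 709.6 to 856.6 RPKM (counts per kilobase of exon, scaled by effective library size). Markers of endothelial and of proliferating cells summed to at most 0.300 RPKM, with Cldn5 at 0 in every library, whereas 9 astrocyte markers summed to 149 to 465 RPKM and 8 microglia markers to 9.62 to 87.1 RPKM.

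All 10 members passed the filter on low counts, with at least 506 counts each in every library. Their levels are given as RPKM, first for IP replicates 1 and 2 and then for total RNA replicates 1 and 2.

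Hk1 (ENSMUSG00000037012, mm10 chromosome 10, 62268855 to 62379908, - strand) encodes the hexokinase that traps glucose as glucose 6-phosphate. Its level was 90.0 and 108 RPKM in IP and 87.0 and 133 RPKM in total RNA, so both kinds of library spanned much the same range. Gpi1 (ENSMUSG00000036427, chromosome 7, 34201330 to 34230336, - strand), the isomerase that makes fructose 6-phosphate, was at 110 and 175.98 RPKM in IP and at 126 and 235 RPKM in total RNA. Within each replicate number the IP library was the lower one. Pfkm (ENSMUSG00000033065, chromosome 15, 98092589 to 98132451, + strand) encodes the muscle-type phosphofructokinase subunit and was the steadiest member, at 118 and 118 RPKM in IP and 115 and 127 RPKM in total RNA. A same-strand gene, Gm26513, shares 10.2% of its exonic bases, and reads in that stretch were not counted for either gene. Pfkp (ENSMUSG00000021196, chromosome 13, 6579768 to 6648777, - strand), the platelet-type subunit, was the lowest member in every library, at 18.2 and 27.3 RPKM in IP and 18.9 and 30.7 RPKM in total RNA.

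Aldoa (ENSMUSG00000030695, chromosome 7, 126795234 to 126800751, - strand) encodes aldolase A, which splits fructose 1,6-bisphosphate, and was the highest member in every library. It stood at 313 and 584 RPKM in IP and at 344 and 687 RPKM in total RNA, places 34, 10, 28 and 6 among the 12336 genes tested. Tpi1 (ENSMUSG00000023456, chromosome 6, 124810586 to 124814296, - strand), which interconverts the 2 triose phosphates, was at 84.6 and 169 RPKM in IP and at 77.2 and 156 RPKM in total RNA. For both genes the replicate 2 libraries were clear of the replicate 1 libraries, while IP and total RNA overlapped.

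Pgk1 (ENSMUSG00000062070, chromosome X, 106187100 to 106203699, + strand), phosphoglycerate kinase, catalyses the first ATP-yielding step. It was at 52.3 and 129 RPKM in IP and at 50.2 and 113 RPKM in total RNA. These levels are lower bounds, since the reads that its coding sequence shares with the pseudogenes were not counted. Counted per base of its own windows, the 4 libraries would hold 113, 280, 109 and 245 RPKM. Eno2 (ENSMUSG00000004267, chromosome 6, 124760053 to 124769673, - strand), the neuronal enolase, had no such loss and was at 112 and 144 RPKM in IP and at 94.8 and 138 RPKM in total RNA.

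Pkm (ENSMUSG00000032294, chromosome 9, 59656368 to 59679375, + strand) encodes the M1 and M2 forms of pyruvate kinase, which gene counts do not separate. It was at 172 and 253 RPKM in IP and at 185 and 312 RPKM in total RNA, second to Aldoa in total RNA. Ldhb (ENSMUSG00000030246, chromosome 6, 142490249 to 142507957, - strand), the lactate dehydrogenase subunit of heart and of many neurons, was at 174 and 215 RPKM in IP and at 151 and 206 RPKM in total RNA. The summed level of the 10 members was 1244 and 1924 RPKM in IP and 1249 and 2137 RPKM in total RNA, so the replicate number separated the libraries and the pulldown did not.

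**Figure D2:**
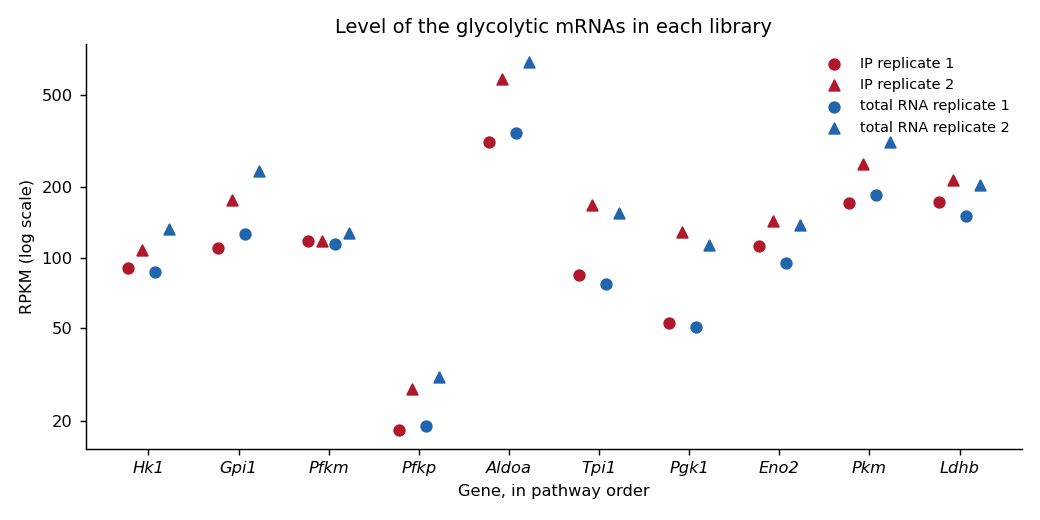
Level of each member in each library as RPKM on a log axis, with genes in pathway order, red for IP, blue for total RNA, circles for replicate 1 and triangles for replicate 2. Aldoa is the highest and Pfkp the lowest member in all 4 libraries, and triangles lie above circles for nearly every gene.

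By mean RPKM in total RNA (± SD, n = 2) the members ran from Aldoa (516 ± 243) and Pkm (249 ± 90.0) through Gpi1 (180 ± 77.1), Ldhb (178 ± 38.8), Pfkm (121 ± 8.57), Tpi1 (117 ± 55.5), Eno2 (116 ± 30.3), Hk1 (110 ± 32.2) and Pgk1 (81.5 ± 44.3) to Pfkp (24.8 ± 8.30). Only 3 neighbouring pairs in this order did not overlap across the 2 libraries, namely Aldoa and Pkm, Ldhb and Pfkm, and Pgk1 and Pfkp. Compared within each total RNA library, Pkm was also above Gpi1 in both, as were Eno2 above Hk1 and Hk1 above Pgk1. The IP libraries gave the same first and last places, with Aldoa at 448 ± 191 and Pfkp at 22.8 ± 6.45 RPKM, and other orders in between. Counted per base of its own windows, Pgk1 would hold 177 RPKM in total RNA, above the 121 RPKM of Pfkm, so its place in the order depends on the multi-mapped reads.

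Whether ribosomes held these mRNAs more or less than other mRNAs was asked by comparing IP with total RNA within each replicate number. One of the 10 members was called: Gpi1 was lower in IP, with a log2 ratio of -0.31 (SE 0.10, 95% interval -0.51 to -0.11, edgeR adjusted p = 0.024), so that total RNA was 1.24-fold above IP. It was lower in both pairs, with log2 ratios of -0.19 and -0.42. Of the coding windows of Gpi1 32.4% are shared with other transcripts, against 8.36% of all its windows. Its ratio therefore leaves out more of the coding sequence than of the rest of the mRNA. Whether such reads were lost alike from IP and total RNA was not tested. No member was called higher by edgeR (0 at an unadjusted p under 0.05) or by DESeq2. DESeq2 called Gpi1 among the members, and 4.38% of all genes in either direction. It gave no adjusted p for 7653 of the 12336 genes, so its share over the genes it could call is higher. Over all 12336 genes tested, 14.2% were called in either direction, 6.63% higher and 7.55% lower in IP, so 1 call in 10 members is near that background. With replicate numbers set aside, the IP and total RNA libraries overlapped for all 10 members, and for 31.8% of all genes they did not. That count leaves out the pairing and so also carries the difference between the replicates described below. Gpi1 overlapped although it was lower in IP in both pairs.

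The other members had ratios close to 0 with intervals that reached no farther than -0.41 and 0.34 on the log2 scale. Of the enzymes before the triose phosphates, Hk1 was at -0.12 (95% interval -0.32 to 0.08, adjusted p = 0.475), Pfkm at -0.03 (-0.23 to 0.16, adjusted p = 0.871), Pfkp at -0.11 (-0.31 to 0.08, adjusted p = 0.498) and Aldoa at -0.19 (-0.39 to 0.02, adjusted p = 0.248). Of those after them, 4 had positive values: Tpi1 at 0.12 (-0.07 to 0.32, adjusted p = 0.459), Pgk1 at 0.13 (-0.07 to 0.33, adjusted p = 0.435), Eno2 at 0.15 (-0.04 to 0.34, adjusted p = 0.350) and Ldhb at 0.13 (-0.06 to 0.33, adjusted p = 0.418). Pkm, which works among these, was at -0.21 (-0.41 to -0.0044, adjusted p = 0.180). None of these 9 passed the threshold. All coding windows of Pgk1 are shared with other transcripts, so its ratio rests on the rest of the mRNA. Pkm and Ldhb share 46.9% and 35.6% of their coding windows, so their ratios are also not those of the whole mRNA.

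The pairs gave the same sign for 8 of the 10 members, against 66.5% of all genes. For Hk1 the log2 ratio was 0.05 in pair 1 and -0.29 in pair 2, and for Pfkm it was 0.04 and -0.11. Aldoa was at -0.14 and -0.24 and Pkm at -0.10 and -0.30, lower in IP in both pairs. Tpi1 was at 0.13 and 0.12, Pgk1 at 0.06 and 0.20, Eno2 at 0.24 and 0.06, and Ldhb at 0.20 and 0.07, higher in both. The median over the members was -0.07 in the fit, beside 0.01 over all genes, and 0.04 and -0.14 in the 2 pairs.

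**Figure D3:**
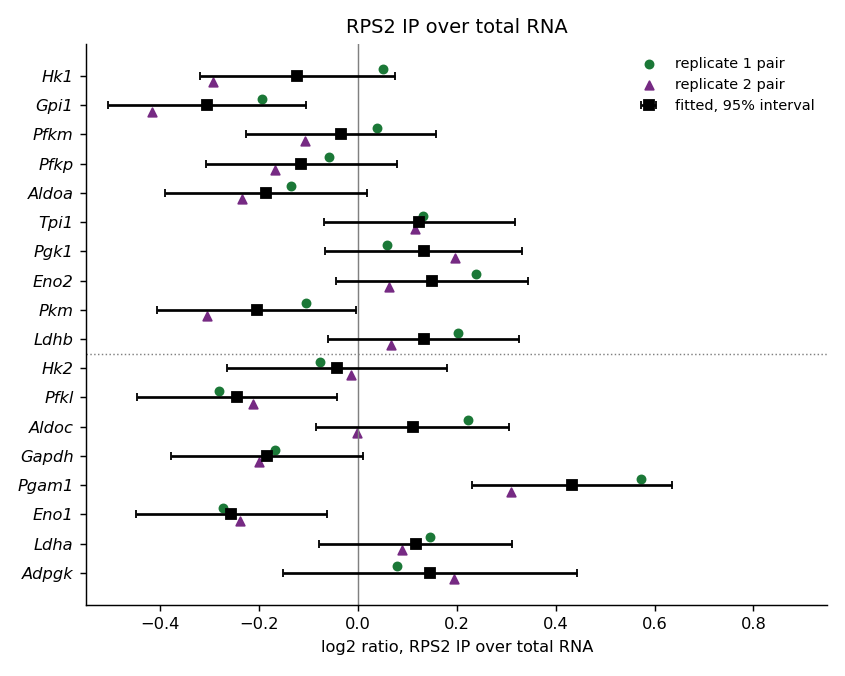
Log2 ratio of RPS2 IP over total RNA, fitted with its 95% interval (squares) and within replicate 1 (circles) and replicate 2 (triangles), for the 10 members above the dotted line and below it the other glycolytic enzymes tested whose standard error was under 0.2. Of the members, the interval of Gpi1 lies farthest from 0 and that of Pkm just excludes it, and Pgam1 stands highest, at 0.43.

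The call on Gpi1 was not made with an offset for GC content and length (log2 ratio -0.18, adjusted p = 0.341) or with scaling by library size alone (-0.39, adjusted p = 0.219), and without the replicate block 0 of 12336 genes were called by edgeR (349 at an unadjusted p under 0.05). Median GC content was 54.2% for the members and 50.5% for all genes, and with that offset the log2 ratios of Hk1 (0.06), Pfkp (0.04), Pgk1 (-0.07) and Ldhb (-0.03) changed sign.

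A larger difference ran between the replicates. In both kinds of library all 10 members were higher in replicate 2 than in replicate 1, as were 37.4% of all genes (70.1% when scaled by library size alone), and 6 members were higher by more than 0.5 on the log2 scale in both, as were 8.73% of all genes. There is 1 sample per replicate number, so these are descriptions with no test, and IP and total RNA of one number are not independent. The largest values, on the log2 CPM scale, which takes library size into account, were those of Pgk1 (1.30 in IP and 1.17 in total RNA), Tpi1 (1.00 and 1.01) and Aldoa (0.90 and 1.00), which is 1.86-fold to 2.47-fold. Gpi1 (0.68 and 0.90), Pfkp (0.59 and 0.70) and Pkm (0.55 and 0.76) came next. Differences were smaller for Hk1 (0.26 and 0.61), Eno2 (0.36 and 0.54) and Ldhb (0.31 and 0.45), and Pfkm barely differed (0.00 and 0.14). All 10 members lay above the median of all genes under each of 3 other scalings too, although with median-ratio size factors 9 of 10, not 10, were above 0 in both kinds of library. Lists described below also held genes higher in replicate 2 in both kinds. These were 13 of 15 citrate cycle genes, 10 of 12 of pyruvate dehydrogenase and 7 of 9 tested of the shuttles. For transport it was 6 of 11 tested, for fructose bisphosphate regulators 2 of 4, and for the pentose phosphate branch 2 of 7.

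Markers of other cells moved with the replicate number in the other direction. All 8 astrocyte markers tested were lower in replicate 2 in both kinds of library, and their summed level, over 9 markers, was 465 and 156 RPKM in IP and 406 and 149 RPKM in total RNA. Gfap, the intermediate filament of astrocytes, differed by -2.58 and -2.57 on the log2 scale. All 5 microglia markers tested were lower as well, and the sum over 8 was 85.7 and 11.8 RPKM in IP and 87.1 and 9.62 RPKM in total RNA. P2ry12, Tmem119 and Aif1 were at 0 in replicate 2 of both kinds. The neuron markers summed to 738 and 735 RPKM in IP and 710 and 857 RPKM in total RNA, with 3 of 10 higher and 3 of 10 lower in replicate 2 in both. Oligodendrocyte lineage markers summed to 12.4 to 17.1 RPKM and fibroblast and pericyte markers to 1.47 to 6.51 RPKM. In bulk samples fewer cells of a type and less RNA per cell cannot be told apart, and the part of these markers in the members' difference was not tested.

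**Figure D4:**
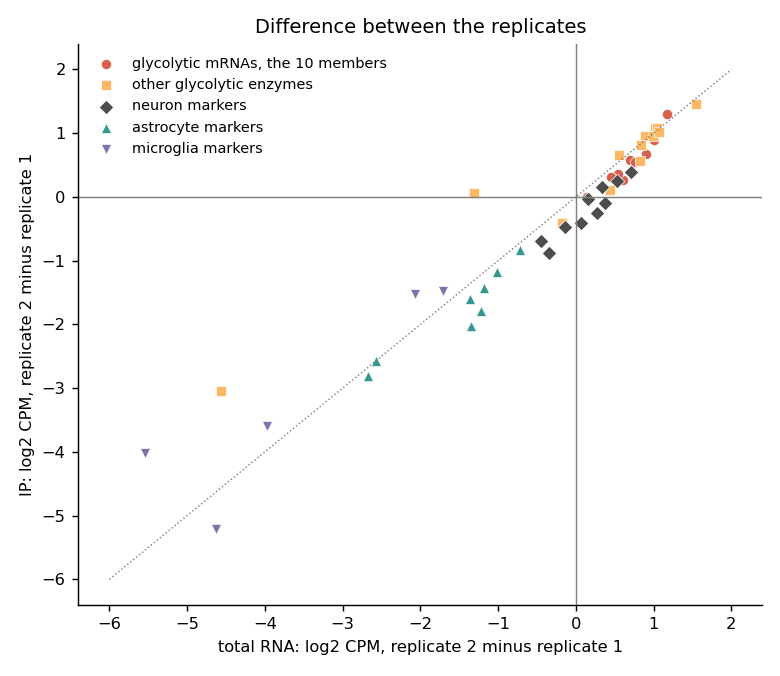
Replicate 2 minus replicate 1 in log2 CPM, in total RNA (horizontal) and IP (vertical), for members, other glycolytic enzymes and cell markers that passed the count filter, with the line of equality dotted. The members lie between 0.00 and 1.30 near the line, the neuron markers around 0, and the astrocyte and microglia markers below 0.

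How each enzyme was divided among its isozymes was read as a share of the summed RPKM of the family. Hk1 made up 90.5% and 84.7% of hexokinase in IP and 88.8% and 86.8% in total RNA, with Hk2 at 7.82% to 12.9% as the next one. Phosphofructokinase was mostly Pfkm, at 78.6% and 68.4% in IP and 76.2% and 67.1% in total RNA. Pfkp held 12.1% and 15.8% in IP and 12.5% and 16.2% in total RNA, and the liver-type Pfkl held 9.29% to 16.7%. The share of Pfkm was lower in replicate 2 in both kinds of library. Aldoa held 80.9% and 91.2% of aldolase in IP and 84.3% and 92.5% in total RNA. Aldoc, the astrocyte-rich isozyme, held 19.1% and 8.70% in IP and 15.5% and 7.50% in total RNA, the larger share in replicate 1, where the astrocyte markers were also higher. The part of those cells in the difference was not tested.

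Enolase and lactate dehydrogenase were more evenly divided. Eno2 held 66.7% and 55.3% of enolase RPKM in IP and 58.1% and 49.8% in total RNA, with nearly all of the rest from the ubiquitous Eno1. Ldhb held 56.3% and 44.2% in IP and 55.4% and 44.6% in total RNA, and Ldha, which encodes the muscle-type subunit, held nearly all of the rest. In both kinds of library the isozyme named for neurons or heart had the smaller share in replicate 2. Both shares depend on how length is counted. Per base of own windows Eno2 would hold 42.0% of enolase in total RNA, against 54.0% ± 5.88 (SD, n = 2) per exonic base, while Eno1b, a second Eno1-like gene, would hold 12.5% in place of 2.39% and Eno1 45.0% in place of 43.1%. Ldhb would hold 53.4% of lactate dehydrogenase in total RNA, against 49.98% ± 7.62 (SD, n = 2). Pgk1 held 100% of phosphoglycerate kinase, with Pgk2, the testis form, at 0 counts, and Pkm held 99.96% or more of pyruvate kinase.

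**Figure D5:**
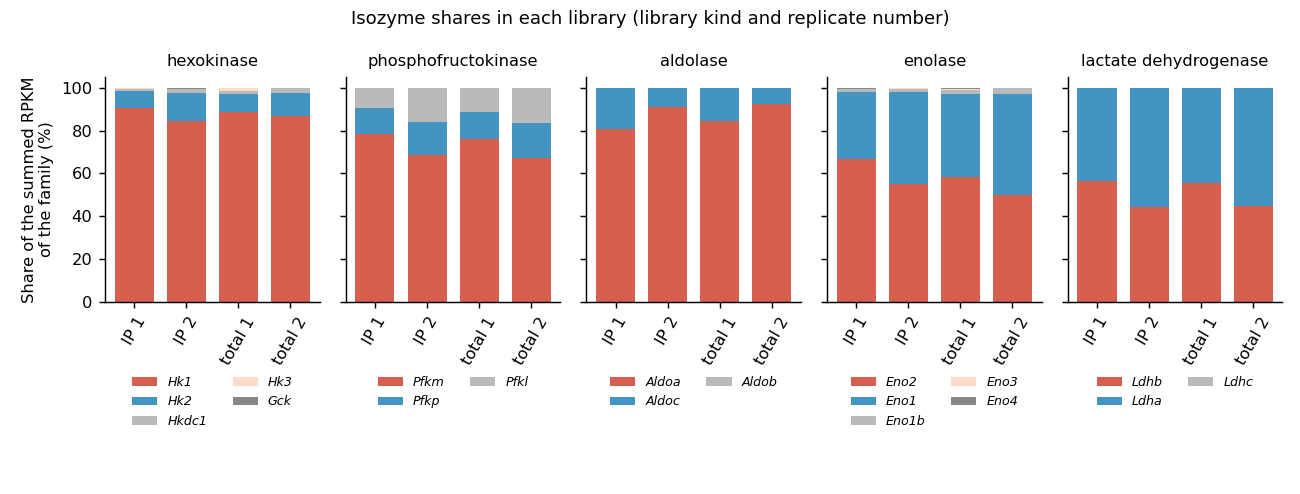
Share of each isozyme in the summed RPKM of its enzyme family, in percent, for the 2 IP and 2 total RNA libraries. Hk1, Pfkm and Aldoa hold most of their families in all 4 libraries, whereas Eno2 runs from 49.8% to 66.7% and Ldhb from 44.2% to 56.3%, both lower in replicate 2.

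Of 21 other glycolytic enzyme genes, 13 passed the count filter, 1 was called higher in IP and 0 lower by edgeR (3 lower at an unadjusted p under 0.05, and 0 by DESeq2). Over all genes tested, edgeR called 6.63% higher and 7.55% lower. Pgam1 was higher by 0.43 on the log2 scale (SE 0.10, edgeR adjusted p = 0.00066), with pair ratios of 0.57 and 0.31, and 1.35-fold. All of its coding windows are shared with other transcripts, so the value rests on the rest of the mRNA. Eno1 (-0.26, adjusted p = 0.061), Pfkl (-0.24, adjusted p = 0.095), Gapdh (-0.19, adjusted p = 0.222) and Hk2 (-0.04, adjusted p = 0.863) had negative values that did not pass. Ldha (0.12, adjusted p = 0.496), Aldoc (0.11, adjusted p = 0.526), Bpgm (0.09, adjusted p = 0.864) and Adpgk (0.15, adjusted p = 0.592) had positive values that did not pass. The remaining 4 had standard errors from 0.25 to 0.64, with Hkdc1 at -0.42, Eno1b at -0.62, Hk3 at -0.97 and Eno4 at 0.53. The median of the 13 was -0.04. In both kinds of library 10 of them were higher in replicate 2, among them Hk2 (1.08 in IP and 1.01 in total RNA), Eno1 (1.08 and 1.04), Ldha (1.01 and 1.07), Pfkl (0.96 and 0.89) and Gapdh (0.81 and 0.84), and Aldoc was lower (-0.41 and -0.18).

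The steps that feed glycolysis and follow it were read from the same fit, which called 6.63% of all genes tested higher and 7.55% lower. Windows shared with other genes were not computed for the genes of these steps, so their loss of multi-mapped reads is not known. Of 12 genes of glucose, lactate and pyruvate transport 11 were tested, and 2 were called higher: Slc2a3, the neuronal glucose transporter GLUT3 (0.49 ± 0.10 SE, adjusted p = 4.3e-05), and Slc16a7, the monocarboxylate transporter MCT2 of neurons (0.49 ± 0.15, adjusted p = 0.012). The lowest was Slc2a4 at -0.42 (adjusted p = 0.674). Slc2a3 stood at 48.5 and 93.5 RPKM in IP and at 37.5 and 61.9 RPKM in total RNA, above total RNA in both pairs. DESeq2 called Slc2a3 and not Slc16a7 (adjusted p = 0.265). Of 7 regulators of fructose bisphosphate 4 were tested, and Tigar, a bisphosphatase that lowers fructose 2,6-bisphosphate, was called higher (0.91 ± 0.23, adjusted p = 0.0014), while Pfkfb4 was the lowest at -0.38 (adjusted p = 0.471).

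All 12 genes of the pyruvate dehydrogenase complex and its kinases and phosphatases were tested, and 3 were called higher. Over all genes tested, 6.63% were called higher and 7.55% lower, and the calls on the lists of this paragraph stand beside those shares. The 3 were Pdha1, the E1 alpha subunit (0.33 ± 0.11, adjusted p = 0.017), the kinase Pdk3 (0.64 ± 0.20, adjusted p = 0.017) and the phosphatase Pdp1 (0.58 ± 0.15, adjusted p = 0.0024). Pdpr was the lowest, at -0.03 (adjusted p = 0.944). With GC content and length as an offset none of the 3 was called by edgeR (adjusted p from 0.103 to 0.368), nor was Tkt, described next (adjusted p = 0.511), and DESeq2 called neither Pdha1 (0.168), Pdp1 (0.158) nor Tkt (0.076) and gave no adjusted p for Pdk3 or Tigar. The 7 genes of the pentose phosphate branch held 1 call, for transketolase, Tkt, lower in IP (-0.32 ± 0.10, adjusted p = 0.015), and the highest was Rpe at 0.23 (adjusted p = 0.732). Among the 9 of 10 genes tested of the glycerol phosphate and malate aspartate shuttles 0 were called by edgeR (1 at an unadjusted p under 0.05, and 0 by DESeq2), between Slc25a11 at 0.30 (adjusted p = 0.117) and Gpd2 at -0.13 (adjusted p = 0.532). Of 15 citrate cycle genes 1 was called, Sdhc of succinate dehydrogenase (0.67 ± 0.14, adjusted p = 4.8e-05), the highest value being Suclg2 at 0.87 (adjusted p = 0.088) and the lowest Idh3g at -0.24 (adjusted p = 0.16).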

How the data were processed

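The authors deposited raw read counts per gene, 1 table per library, with exonic length. Per the file headers these counts came from featureCounts 1.5.3 in stranded mode without the options that count reads at several loci or in several genes. The submitters' processing notes name Subread, featureCounts and mm10, and the study's methods describe cutadapt trimming and end-to-end STAR alignment to mm10. Removal of PCR duplicates is not given in the sources used here. Of 31053 identifiers, 30934 had a symbol in GENCODE M21. Aldoa has a second identifier with 3 to 34 counts per library, which was not used.

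The analysis used edgeR 4.0.16 under R 4.3.3 (filterByExpr, TMM, quasi-likelihood test, two-sided, Benjamini-Hochberg over the 12336 genes kept, threshold 0.05), with the replicate number as a block. The block was used because the study's methods say that total RNA was set aside from the samples before the pulldown. The labels do not state which libraries share a sample. The deviation of each gene from its group mean correlated at 0.733 (Pearson) between libraries of one number. That value shows that such libraries differed alike, and it cannot show that they came from 1 sample. The block left 1 residual degree of freedom per gene and the prior was infinite, so standard errors follow the dispersion trend. Fitted intervals are ± 1.96 SE. Ratios within a pair and differences between replicates are of log2 CPM with a prior count of 2. DESeq2 1.42.0 was an alternative. The fits were tested on simulated data. Windows of 50 bases were matched exactly, on either strand, to all GENCODE M21 transcripts, and pseudogenes were found with blastn 2.17.0 (at least 200 bases and 80% identity). A genome sequence was not used here.

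The members, gene lists and tests were chosen with earlier results of these data known. Named were the members, the other glycolytic enzymes that passed the filter, and of each other list the genes called and the highest and lowest. Gm42418, Gm26513, the pseudogenes and the markers quoted were named after their values were seen.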

Additional observations from a re-analysis of the deposited data

How the results depend on the processing

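Without the replicate block 0 genes were called in either direction, in place of 818 higher and 931 lower, and 0 members and 0 genes of every other list. DESeq2 with the replicate block called 158 higher and 382 lower (7653 adjusted p-values were not given) and called 1 transport gene and 0 genes of the regulators, pyruvate dehydrogenase and pentose phosphate lists, with no adjusted p for Tigar and Pdk3. Library size alone gave 283 higher and 878 lower, 0 members lower and a median of -0.29 for the members in pair 2. The offset for GC content and length left 317 lower, 0 members lower, 0 calls in the pyruvate dehydrogenase and pentose phosphate lists and 1 citrate cycle gene lower. It also reversed Hk1 (0.057), Pfkp (0.038), Pgk1 (-0.065) and Ldhb (-0.034), and moved the list medians of the fructose bisphosphate regulators to 0.14 and of pyruvate dehydrogenase to 0.19. The cause was not tested.

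The call on Gpi1 was kept in 6 of 8 alternatives with the block, which ran from -0.39 to -0.18. Leaving out 1 library each, without the block, gave 0 to 0 genes higher and 1 to 8 lower, 0 members called, and a members' median from -0.46 to 0.31. The log2 ratio then ran from -0.42 to 0.19 for Hk1, -0.72 to 0.18 for Gpi1, -0.11 to 0.036 for Pfkm, -0.45 to 0.26 for Pfkp, -0.73 to 0.38 for Aldoa, -0.47 to 0.71 for Tpi1, -0.65 to 0.85 for Pgk1, -0.11 to 0.43 for Eno2, -0.56 to 0.20 for Pkm and -0.081 to 0.36 for Ldhb. The lone library of a group was there assumed to vary like the other group, and without the block these ratios also carry the difference between the replicates.

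The share of Eno2 in total RNA fell from 54.0% to 42.0% when length was counted in own windows, an alternative chosen after seeing the data, as were the other scalings of the replicate difference. Lengths from windows unique in the genome were not run, because no genome was used here. With windows of 30 and 75 bases the shared share was 14.6% and 4.17% for Gpi1, 17.7% and 0.672% for Aldoa, 10.4% and 1.35% for Tpi1, 23.5% and 7.13% for Pkm and 33.8% and 12.6% for Ldhb, and 52.8% for Pgk1 at 75 bases. Each group held 2 libraries. Counts were simulated for IP over total RNA on the 12336 genes kept. Their spread was drawn from the dispersion trend that the fit with the block itself relies on. How that fit fares for genes whose spread departs from the trend was therefore not tested. The fit with the block recovered 22 of 100 genes changed 1.4-fold and 73 of 100 changed 2-fold. The fit without the block recovered 0 of 100 at either size. The changed genes were drawn at random from all genes kept, so over such genes differences near 1.4-fold could mostly be missed. Recovery was not simulated apart for genes with counts like those of the members, of which edgeR called Gpi1 at 1.24-fold.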
